A study of Mus musculus with 10 samples.

Results

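Rbpj and the 3 Onecut genes (Onecut1, Onecut2 and Onecut3) were followed through 10 RNA-seq libraries of cells sorted from mouse liver. Members were chosen by gene symbol in the GENCODE M21 annotation, which gave 4 genes of 29972 and 7 of the 85276 transcripts listed in the deposited tables. Of the 4, Rbpj and Onecut1 (called Hnf6 in the genotype labels) carried floxed alleles in every animal of the study. HpC (4 libraries) were hepatocyte-derived peripheral cholangiocytes from Alb-Cre+/-;Rbpjf/f;Hnf6f/f mice aged P124, P151, P144 and P139 (postnatal days). The pC group (3 libraries) held peripheral cholangiocytes from Rbpjf/f;Hnf6f/f mice without Cre aged P151, P119 and P142. H (3 libraries) were hepatocytes, again from Alb-Cre+/-;Rbpjf/f;Hnf6f/f mice, aged P134, P139 and P139. The strain was mixed, from C57BL/6, FVB and CD1. Ages, and all values by library, are in the order of the library numbers, such as HpC1 to HpC4. Alb-Cre is Cre recombinase under the albumin promoter, which is active in hepatocytes and their precursors. Hepatocytes without Cre are not analysed here, and pC differed from both other groups in Cre as well as in cell type or origin, which cannot be told apart. The labels do not say which exons were floxed.

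RBPJ is the DNA-binding protein of canonical Notch signalling. Without a signal it holds target genes down with corepressors; the freed intracellular part of a Notch receptor binds it and, with a Mastermind-like protein, turns it into an activator. ONECUT proteins are transcription factors with a cut domain and a homeodomain. ONECUT1 acts in hepatocytes and in the developing bile duct, where Notch signalling through RBPJ is also needed, and ONECUT2 overlaps with it in liver development.

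Values are transcript abundances corrected for length and scaled to a fixed total per library (TPM). Scaled TPM were further divided by a factor per library, and log2 differences are on the scale of log2(scaled TPM + 1), which understates changes of low genes. The deposited tables hold no read counts, so that depth and counting error are unknown. Cholangiocyte markers summed to 1887 to 3136 in HpC, 5507 to 5717 scaled TPM in pC and 40.9 to 52.3 in H, and hepatocyte markers to 3161 to 5890 in HpC, 1004 to 2612 in pC and 80881 to 91093 in H. The library HpC1 stood apart with 216313 summed scaled TPM of 10 pancreatic acinar markers, against 7.80 to 939 in the other 9, and HpC2 with 39866 of 10 stratified squamous markers, against at most 12.7 in the other 9. Results are therefore also given without both where that changes a call. In bulk samples fewer cells of a type and less RNA per cell cannot be told apart.

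The 2 transcripts of Onecut1 in the tables share their last exon but begin differently, and the results turn on which of them was given the reads. Onecut1 (ENSMUSG00000043013) lies at chr9:74861921-74891781 on the plus strand of mm10. Onecut1-201, the annotated coding transcript, has 2 exons. The first, chr9:74861921-74863401, holds 1105 of its coding bases and the second, chr9:74889306-74891781, the remaining 290. The end of exon 1 codes for part of the cut domain and exon 2 for the homeodomain. Onecut1-202 is annotated as a processed transcript with no coding sequence. It starts inside the intron of Onecut1-201 with an exon of 156 bases, chr9:74866484-74866639, and joins the same second exon at the same base. Below, read from the GENCODE M21 transcripts, the last 156 bases of exon 1 of each are in capitals and the first 25 bases of the common exon in lower case, so that the place where the 2 part is visible.
Onecut1-202: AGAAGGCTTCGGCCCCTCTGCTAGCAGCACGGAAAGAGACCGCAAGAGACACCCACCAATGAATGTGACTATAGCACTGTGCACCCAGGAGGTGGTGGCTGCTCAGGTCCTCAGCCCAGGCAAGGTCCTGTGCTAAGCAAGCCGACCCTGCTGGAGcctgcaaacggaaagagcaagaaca
Onecut1-201: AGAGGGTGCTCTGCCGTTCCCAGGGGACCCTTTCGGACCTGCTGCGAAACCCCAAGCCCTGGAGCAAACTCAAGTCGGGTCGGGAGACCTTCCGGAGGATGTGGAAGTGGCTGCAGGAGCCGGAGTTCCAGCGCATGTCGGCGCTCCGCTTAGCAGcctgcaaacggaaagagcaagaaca

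The series' design text gives single-end reads of 50 bases, so the part of each transcript that such a read can tell apart was counted. The search covered only those transcripts of the tables that are in GENCODE M21. Of the 3908 windows of 50 bases in Onecut1-201, 2899 (74.2%) occur in no other transcript searched. Of the 1162 windows in Onecut1-202, 154 (13.3%) occur in no other transcript searched, all of which reach into its first exon. The other 1008 windows are common to both. The level of Onecut1-202 thus rests on a short stretch of its own and on how reads of the common exon were divided. The counting of 50-base reads can split these between both transcripts, so their single values and their shares are uncertain.

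Onecut1-201, the coding transcript, was low in both Cre-bearing groups and high in pC. It stood at 8.78, 3.77, 4.96 and 9.27 scaled TPM in the HpC libraries, and at 63.4, 51.3 and 53.5 in the pC libraries. In the H libraries it stood at 16.6, 8.17 and 6.50. Every pC library was thus far above every HpC and H library, while the HpC and H ranges overlapped. Onecut1-201 fell by 2.96 ± 0.35 (SE) on the log2 scale in HpC relative to pC (limma adjusted p = 0.00443). It was among the 0.85% of 36716 transcripts called lower in that comparison. The difference was -3.11 to -2.73 with each library left out in turn and -2.84 without HpC1 and HpC2 (limma adjusted p = 0.0352), and it passed throughout. HpC and H differed by -0.54 ± 0.35, which did not pass (limma adjusted p = 0.242); on TPM without scaling the sign turned (0.44, limma adjusted p = 0.406). pC exceeded H by 2.41 ± 0.37 (limma adjusted p = 0.000541), a comparison in which 21.6% of transcripts were called higher.

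Onecut1-202 gave another picture. Its scaled TPM was 28.9, 15.5, 19.9 and 37.0 in the HpC libraries, 18.5, 11.7 and 19.3 in the pC libraries, and 92.7, 79.5 and 39.5 in the H libraries. The HpC and pC ranges overlapped, and all H libraries were above all others. HpC and pC differed by 0.55 ± 0.36 (limma adjusted p = 0.634). Onecut1-202 fell by 1.43 ± 0.36 in HpC relative to H (limma adjusted p = 0.0100), where 19.8% of transcripts were called lower. It also fell in pC relative to H, with a difference of -1.97 ± 0.39 (limma adjusted p = 0.00242), where 19.2% were. The difference from H missed the threshold on TPM without scaling, both for HpC (-0.32, limma adjusted p = 0.576) and for pC (-0.46, limma adjusted p = 0.422), and for HpC also without HpC1 and HpC2 (-1.14, limma adjusted p = 0.0650).

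**Figure D1:**
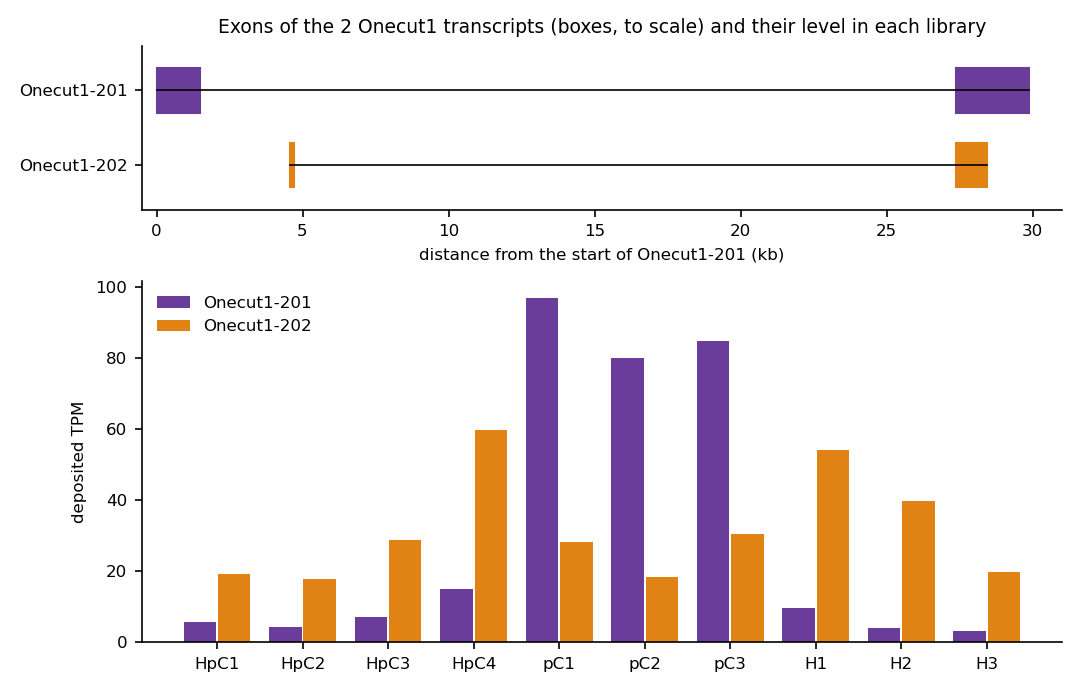
Top, exons of Onecut1-201 and Onecut1-202 as boxes along the distance from the start of Onecut1-201, in kilobases. Bottom, deposited TPM of both transcripts in each library; Onecut1-201 is the taller bar in the 3 pC libraries only, and Onecut1-202 in the 4 HpC and 3 H libraries.

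The ratio of these transcripts within a library does not depend on scaling between libraries. It does depend on how reads of the common exon were divided. Onecut1-201 made up 23.3%, 19.5%, 20.0% and 20.0% of the Onecut1 TPM in the HpC libraries, 77.4%, 81.4% and 73.5% in the pC libraries, and 15.2%, 9.31% and 14.1% in the H libraries. The 3 groups did not overlap in any pair, and HpC lay near H and far from pC. The mean share was 20.7 ± 1.73% in HpC (SD, n = 4), 77.4 ± 3.93% in pC (SD, n = 3) and 12.9 ± 3.14% in H (SD, n = 3). Seen from Onecut1-202, the share was 56.7 percentage points higher in HpC than in pC (two-sided exact permutation test over 35 splits, p = 0.0286, the smallest it can give; adjusted over 15 share tests p = 0.107). It was lower in HpC than in H by a difference of -7.82 points (exact permutation p = 0.0286, adjusted p = 0.107). Between pC and H the difference was -64.6 points, where 3 libraries against 3 cannot give an exact permutation p under 0.1, the value found (adjusted p = 0.15).

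Among the 8251 tested genes with more than 1 transcript in the tables and TPM above 0 in every library, the share of the leading transcript did not overlap between HpC and pC in 6.4%, between HpC and H in 17.1% and between pC and H in 23.2%. A difference between HpC and pC at least as large as that of Onecut1 was seen in 13 of these genes (0.158%). Between pC and H it was seen in 102 genes (1.24%), and between HpC and H in 3908 (47.4%). Weighted by transcript length, which is nearer to the share of reads, Onecut1-201 held 46.0 ± 2.56% of Onecut1 in HpC (SD, n = 4), 91.8 ± 1.69% in pC (SD, n = 3) and 32.3 ± 6.33% in H (SD, n = 3). The order of the groups was the same.

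**Figure D2:**
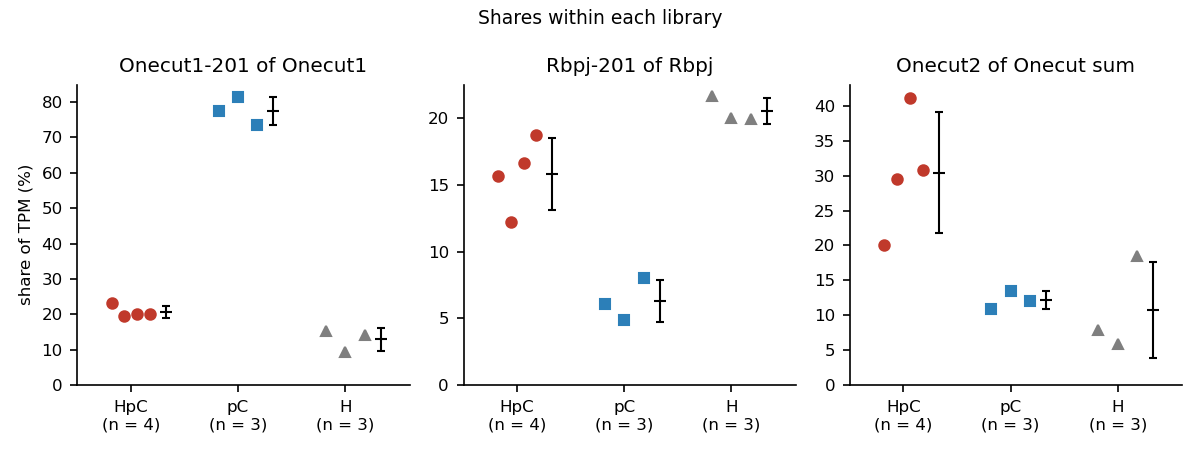
Share of TPM, in percent, of Onecut1-201 within Onecut1 (left), Rbpj-201 within Rbpj (middle) and Onecut2 within the summed Onecut genes (right); points are libraries and bars the mean ± SD for HpC (n = 4), pC (n = 3) and H (n = 3). The Onecut1-201 share is 19.5% to 23.3% in HpC, 73.5% to 81.4% in pC and at most 15.2% in H.

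The gene total of Onecut1, 37.7, 19.3, 24.9 and 46.3 scaled TPM in the HpC libraries, 81.9, 63.0 and 72.8 in the pC libraries, and 109, 87.7 and 46.0 in the H libraries, therefore summed different transcripts in different groups. Between pC and H, where the total differed by -0.08 ± 0.37 (limma adjusted p = 0.866; on TPM without scaling 1.46, limma adjusted p = 0.0115), Onecut1-201 was the larger part in all 3 pC libraries and Onecut1-202 in all 3 H libraries. Counting only the transcript annotated as coding, the same comparison gave 2.41 ± 0.36 (limma adjusted p = 0.000182). Between HpC and pC the gene total did not pass (-1.22 ± 0.34, limma adjusted p = 0.0805), beside 4.54% of 14765 genes called; it did without HpC4 (-1.42, limma adjusted p = 0.0435), on TPM without scaling (-1.65, limma adjusted p = 0.0485), and for the coding transcript alone at -2.96 ± 0.34 (limma adjusted p = 0.000932). Between HpC and H the total passed at -1.30 ± 0.34 (limma adjusted p = 0.00768), where 29.2% of genes were called lower. For the coding transcript alone that comparison was -0.54 ± 0.34 (limma adjusted p = 0.177), and on TPM without scaling -0.19 (limma adjusted p = 0.704).

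**Figure D3:**
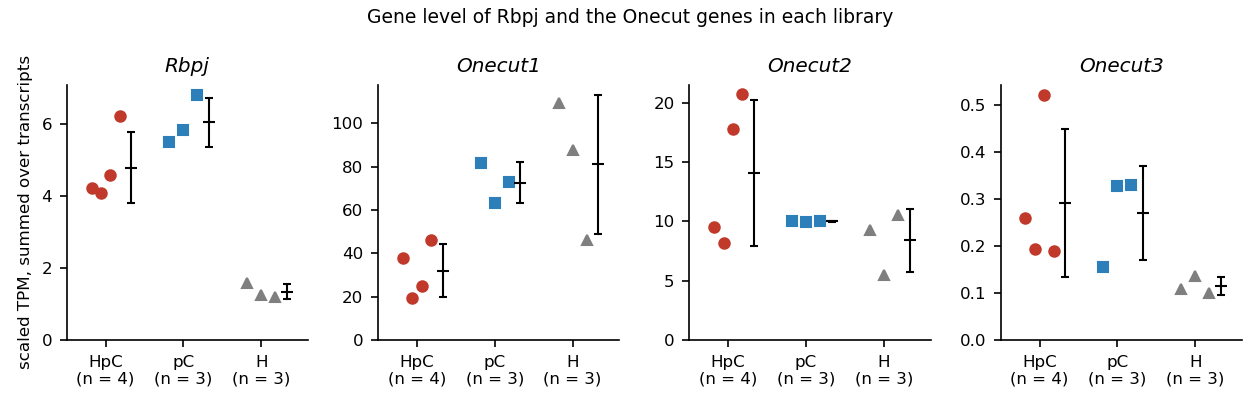
Scaled TPM summed per gene for Rbpj, Onecut1, Onecut2 and Onecut3 in each library (points), with mean ± SD for HpC (n = 4), pC (n = 3) and H (n = 3); each panel has its own linear axis from 0. Rbpj is lowest in all 3 H libraries, and Onecut2 lies between 5.44 and 20.8 in every library.

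Onecut2 (ENSMUSG00000045991, chr18:64340020-64400987, plus strand, 1 transcript) encodes the family member closest to ONECUT1 in liver development, and carries no floxed allele. It stood at 9.55, 8.17, 17.8 and 20.8 scaled TPM in the HpC libraries, at 9.99, 9.90 and 10.1 in the pC libraries, and at 9.27, 5.44 and 10.5 in the H libraries. HpC3 and HpC4 were above all pC and H libraries and HpC1 and HpC2 were not, so that the groups overlapped. HpC and pC differed by 0.36 ± 0.32 (limma adjusted p = 0.606), HpC and H by 0.63 ± 0.32 (limma adjusted p = 0.114), and pC and H by 0.27 ± 0.34 (limma adjusted p = 0.522). None of these passed. The difference of HpC from H passed without HpC2 (0.94, limma adjusted p = 0.0215), without both HpC1 and HpC2 (1.27, limma adjusted p = 0.00216) and on TPM without scaling (1.62, limma adjusted p = 0.00965), where that of pC from H passed as well (1.64, limma adjusted p = 0.0106). On that scale the HpC to pC difference was -0.022.

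TPM is per length, so the Onecut genes can be set side by side within a library. Onecut2 took 20.1%, 29.5%, 41.2% and 30.9% of the summed Onecut TPM in the HpC libraries, 10.9%, 13.5% and 12.1% in the pC libraries, and 7.81%, 5.83% and 18.5% in the H libraries. All HpC libraries were above all pC and H libraries. The difference was 18.3 points between HpC and pC and 19.7 points between HpC and H, each with an exact permutation p of 0.0571 (two-sided, adjusted p = 0.107). In deposited TPM, Onecut2 exceeded the coding Onecut1-201 in all 4 HpC libraries, in none of the 3 pC libraries and in 1 of the 3 H libraries, H3. With only coding transcripts counted, the Onecut2 share was 51.4%, 67.4%, 76.4% and 68.7% in the HpC libraries, 13.6%, 16.1% and 15.7% in the pC libraries, and 35.7%, 39.6% and 61.4% in the H libraries. HpC stayed above pC, by 50.8 points (adjusted exact permutation p = 0.133), but HpC and H overlapped, since H3 was above HpC1, at a difference of 20.4 points (adjusted exact permutation p = 0.133).

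Onecut3 (ENSMUSG00000045518, chr10:80494835-80517276, plus strand, 1 transcript), the third family member, was low throughout and reached 1 TPM in no library, so it was not tested. Its deposited TPM was 0.174, 0.223, 0.755 and 0.306 in the HpC libraries, 0.237, 0.510 and 0.524 in the pC libraries, and 0.0633, 0.0683 and 0.0508 in the H libraries. All H libraries were below all others, and HpC and pC overlapped. For gene totals the order of the family was the same in each library, with Onecut1 above Onecut2 and Onecut2 above Onecut3. For coding transcripts alone it was not, since Onecut2 exceeded Onecut1-201 in all HpC libraries and in H3.

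For Rbpj (ENSMUSG00000039191, chr5:53466152-53657362, plus strand), 3 of the 12 annotated transcripts are in the tables, and all 3 differ in their first exon and share the next 10, except for the last bases of Rbpj-202. Rbpj-201 starts at chr5:53590214-53590486 and Rbpj-203 at chr5:53590471-53590724, so that these first exons overlap, and Rbpj-202 starts upstream of both, at chr5:53555834-53555903. The last 25 bases of the first exon are shown in capitals for the pair with TPM above 0 in every library, before the first 25 of the common exon 2.
Rbpj-203: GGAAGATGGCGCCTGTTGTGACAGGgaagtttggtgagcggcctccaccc
Rbpj-201: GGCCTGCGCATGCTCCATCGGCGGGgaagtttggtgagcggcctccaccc

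Rbpj-203 was the leading transcript in every library. It stood at 3.57, 3.59, 3.56 and 5.07 scaled TPM in the HpC libraries, at 5.17, 5.57 and 6.28 in the pC libraries, and at 1.24, 1.01 and 0.958 in the H libraries. On this scale no HpC library reached the lowest pC library, and H was lowest. In deposited TPM HpC4, at 8.18, was above pC1, at 7.90. HpC and pC differed by -0.44 ± 0.19, which did not pass (limma adjusted p = 0.398). Each lay above H, HpC by 1.25 ± 0.19 (limma adjusted p = 0.000488), where 20.7% of transcripts were called higher, and pC by 1.69 ± 0.20 (limma adjusted p = 0.000106). Rbpj-203 reached 1 TPM as deposited in 7 libraries, none of them H, and so entered the test through the groups where it is high.

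Rbpj-201 was lower and passed the filter of 1 TPM in too few libraries (2) to be tested. Its deposited TPM was 0.444, 0.574, 1.11 and 1.88 in the HpC libraries, 0.512, 0.443 and 0.865 in the pC libraries, and 0.201, 0.126 and 0.120 in the H libraries. Rbpj-202 was listed at 0 in all libraries but HpC3, where its deposited TPM was 0.396. Within Rbpj, the share of Rbpj-203 was 84.3%, 87.8%, 77.4% and 81.3% in the HpC libraries, 93.9%, 95.2% and 92.0% in the pC libraries, and 78.3%, 80.0% and 80.1% in the H libraries. All pC libraries were above all others. The mean was 82.7 ± 4.42% in HpC (SD, n = 4), against 93.7 ± 1.58% in pC (SD, n = 3) and 79.4 ± 0.973% in H (SD, n = 3). HpC differed from pC by -11.0 points (two-sided exact permutation p = 0.0571, adjusted p = 0.107), and 1660 of the 8251 genes (20.1%) differed by at least as much. It differed from H by 3.26 points (exact permutation p = 0.286, adjusted p = 0.330). Only 252 of the 5391 windows of 50 bases in Rbpj-203 (4.67%), and 271 of the 5410 in Rbpj-201 (5.01%), occur in no other transcript searched.

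A near-identical copy bears on every Rbpj value. Rbpj-ps3, a processed pseudogene of 1441 bases on the minus strand at chr6:46529354-46530794, aligned to bases 255 to 1695 of Rbpj-203 with 1437 of 1441 bases identical (99.7%), 4 mismatches and 0 gap columns. The match covers exons 2 to 10 whole and 313 bases of exon 11, which is the coding sequence past exon 1. Of its 1392 windows of 50 bases, 1239 (89.0%) also occur in Rbpj. Of the 5391 windows in Rbpj-203, 1259 (23.4%) occur in another gene. Among the transcripts searched, 3880 (72.0%) are shared only with other Rbpj transcripts. The 60 bases around a pair of the mismatches, in capitals, show how alike the copies are.
Rbpj-203: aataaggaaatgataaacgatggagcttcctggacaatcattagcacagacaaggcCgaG
Rbpj-ps3-201: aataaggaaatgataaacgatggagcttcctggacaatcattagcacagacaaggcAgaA

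Rbpj-ps3 stood at 5.27, 5.59, 7.71 and 7.37 scaled TPM in the HpC libraries, at 10.2, 4.68 and 9.90 in the pC libraries, and at 1.61e-05, 0 and 0.0890 in the H libraries. The pseudogene's level was thus of the size of Rbpj itself in both cholangiocyte groups and near 0 in H. The ratio of Rbpj-ps3 to Rbpj was 1.18 to 1.68 in HpC, 0.799 to 1.85 in pC and 0 to 0.0744 in H. HpC and pC differed by -0.26 ± 0.27 at the transcript (limma adjusted p = 0.794), and each lay above H, HpC by 2.85 ± 0.27 (limma adjusted p = 2.02e-05) and pC by 3.10 ± 0.29 (limma adjusted p = 1.83e-05). Values of Rbpj and Rbpj-ps3 as single genes are uncertain, since the counting of 50-base reads can split them. Their summed TPM does not undo such a split, since TPM is per length. Rbpj-ps3 has 1441 bases and Rbpj-203 has 5440, so a read given to Rbpj-ps3 weighs more in the sum. The sum is thus not the level that Rbpj would have without a split. With both summed, HpC and pC differed by -0.31 ± 0.19 (limma adjusted p = 0.453), and HpC exceeded H by 2.36 ± 0.19 (limma adjusted p = 3.15e-06), against 1.29 ± 0.17 for Rbpj alone (limma adjusted p = 8.06e-05), where 30.7% of genes were called higher. pC exceeded H by 2.67 ± 0.21 with both summed (limma adjusted p = 2.20e-06), against 1.59 ± 0.18 for Rbpj alone (limma adjusted p = 3.08e-05). Rbpj and Rbpj-ps3 each reached 1 TPM as deposited in 7 libraries, none of them H. Both therefore entered the tests against H through the groups where they are high.

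The other copy in the tables, Rbpj-ps1, was listed at 0 except for 0.187 scaled TPM in HpC4 and 0.0533 in pC2. Rbpjl, the RBPJ paralogue that works with PTF1A in pancreatic acinar cells, stood at 18.1, 0.472, 1.46 and 2.99 scaled TPM in the HpC libraries, at 0.609, 1.12 and 2.07 in the pC libraries, and was listed at 0 in all 3 H libraries. The highest value was in HpC1, the library with 216313 summed scaled TPM of acinar markers, of which Rbpjl is itself one.

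**Figure D4:**
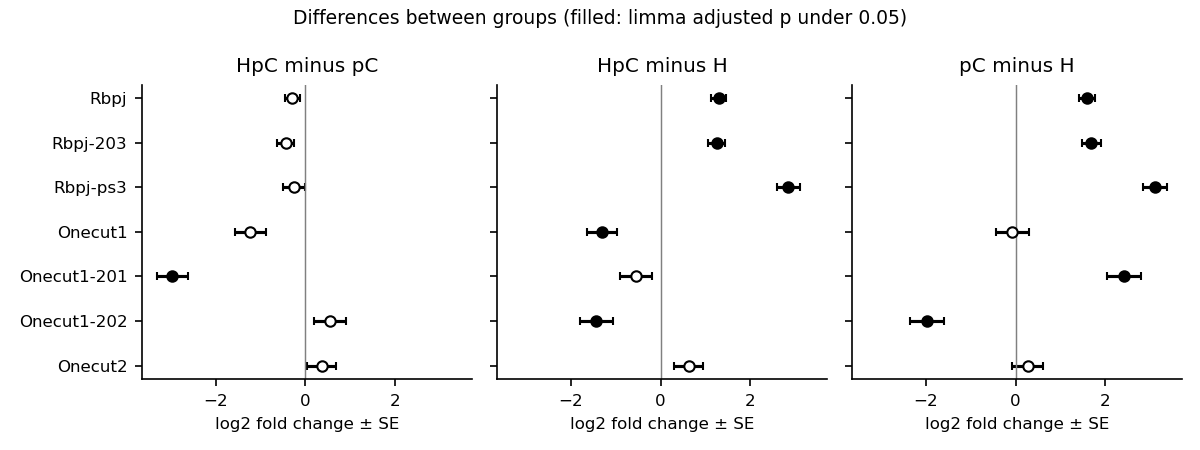
Log2 difference ± SE from limma for HpC minus pC, HpC minus H and pC minus H (left to right) of each member gene and transcript that was tested, and of Rbpj-ps3; filled points passed an adjusted p of 0.05. In the left panel only Onecut1-201, at -2.96, is filled.

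Genes that work with RBPJ and ONECUT1 were read from the same fit. Between HpC and pC, where 1.99% of genes were called higher and 2.55% lower and the median of all genes was -0.01, few of them passed. Of 19 tested Notch ligands, receptors and processing genes, 1 rose, the receptor-modifying fringe enzyme Lfng, and 1 fell, the receptor Notch2, with a median of 0.22. Of 24 RBPJ nuclear partners, none rose and 1 fell, the acetyltransferase Kat2b, with a median of -0.11. Of 9 tested Notch-RBPJ target genes, none rose and 3 fell, with a median of -0.44. Of 16 liver and duct transcription factors, none rose and 4 fell, with a median of -0.16. Of 12 genes with ONECUT1-bound regulatory regions, 1 rose and 2 fell, with a median of 0.05. Summed cholangiocyte markers, of which Sox9 is also in these lists, were lower in every HpC than in every pC library. Summed markers of stellate cells and fibroblasts were at 23.7 to 74.0 scaled TPM in HpC, above the 14.0 to 18.2 in pC and the 1.13 to 3.14 in H, and mesothelial markers at 33.1 to 54.6 in HpC, above the 24.3 to 30.9 in pC and the 0.643 to 1.40 in H. The part of these cell types in the counts was not tested. On TPM without scaling, where the median of all genes was -0.36, the median of the Notch list was -0.19 and that of the ONECUT1-bound list -0.26, with 2 ONECUT1-bound genes called higher and 1 lower.

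Among the target genes, the repressor Hes1 stood at 61.1, 54.2, 61.2 and 73.3 scaled TPM in the HpC libraries, 759, 563 and 291 in the pC libraries, and 24.9, 13.6 and 21.2 in the H libraries. Every HpC library lay between the H and the pC libraries. HpC differed from pC by -2.99 ± 0.31 (limma adjusted p = 0.000924). Dtx1, a ubiquitin ligase of the Notch pathway, stood at 4.83, 0.885, 1.62 and 1.92 in the HpC libraries, 15.6, 16.5 and 14.4 in the pC libraries, and 0, 0 and 0.0413 in the H libraries. It fell by 2.45 ± 0.31 in HpC relative to pC (limma adjusted p = 0.00254). Hey1, a repressor related to Hes1, was at 0.730 ± 0.241 in HpC (SD, n = 4) and 1.97 ± 0.165 in pC (SD, n = 3), a difference of -0.79 ± 0.16 (limma adjusted p = 0.0226). Hey1 reached 1 TPM in 3 pC libraries, in 1 HpC library and in no H library. It thus entered the test mainly through the group where it is high.

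Of the transcription factors, Prox1, which acts in hepatoblasts and hepatocytes, stood at 28.0, 14.8, 27.8 and 34.5 scaled TPM in the HpC libraries, 95.8, 115 and 67.0 in the pC libraries, and 67.1, 61.2 and 61.0 in the H libraries. HpC was below both other groups in every library, by -1.81 ± 0.27 from pC (limma adjusted p = 0.00525) and -1.29 ± 0.27 from H (limma adjusted p = 0.00225). Hhex, needed for hepatobiliary development, and the nuclear receptor Nr5a2 fell by 1.12 ± 0.23 (limma adjusted p = 0.0219) and 1.14 ± 0.24 (limma adjusted p = 0.0246) in HpC relative to pC.

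Among ONECUT1-bound genes, the glucose transporter gene Slc2a2 fell by 0.87 ± 0.16 in HpC relative to pC (limma adjusted p = 0.0148), and Serpina1a, which encodes an alpha-1-antitrypsin, was higher by 2.45 ± 0.47 (limma adjusted p = 0.0165). Serpina1a has near-identical neighbours, so its value as a single gene is uncertain. It is also one of the hepatocyte markers, whose sum was higher in every HpC than in every pC library. Lfng was higher by 1.34 ± 0.30 (limma adjusted p = 0.0319), with 6.54 scaled TPM in HpC1, against 2.10 to 2.15 in the other 3 HpC libraries and 0.497 to 0.571 in pC. It reached 1 TPM in the 4 HpC libraries alone and so entered the test through the group where it is high. Notch2 fell by 0.66 ± 0.15 (limma adjusted p = 0.0322) and Kat2b by 1.10 ± 0.22 (limma adjusted p = 0.0191).

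Among these named HpC to pC calls, those of Hes1, Dtx1 and Prox1 held with each library left out, without HpC1 and HpC2 and under both other scalings. The rest did not. Without HpC1 and HpC2 the limma adjusted p was 0.0523 for Hey1, 0.0706 for Hhex, 0.0684 for Kat2b, 0.0705 for Notch2, 0.0693 for Slc2a2 and 0.0924 for Serpina1a, and Lfng passed the filter in too few libraries. Without pC1 it was 0.0862 for Hey1, 0.103 for Hhex, 0.0680 for Kat2b, 0.118 for Lfng, 0.130 for Notch2, 0.104 for Nr5a2 and 0.0741 for Slc2a2. Without pC2 it was 0.115 for Hey1, 0.112 for Hhex, 0.0993 for Kat2b, 0.120 for Lfng, 0.118 for Notch2 and for Nr5a2, and 0.0859 for Slc2a2. Without HpC3 it was 0.0676 for Hey1, 0.0556 for Hhex, 0.0600 for Kat2b, 0.0528 for Lfng, 0.0877 for Notch2 and 0.0688 for Nr5a2, and without pC3 it was 0.0630 for Hey1, 0.0879 for Lfng and 0.0850 for Notch2. Lfng and Notch2 also missed it without any single H library (0.0520 to 0.0531 and 0.0534 to 0.0571). On TPM without scaling Notch2 (0.134) and Slc2a2 (0.0670) missed it.

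**Figure D5:**
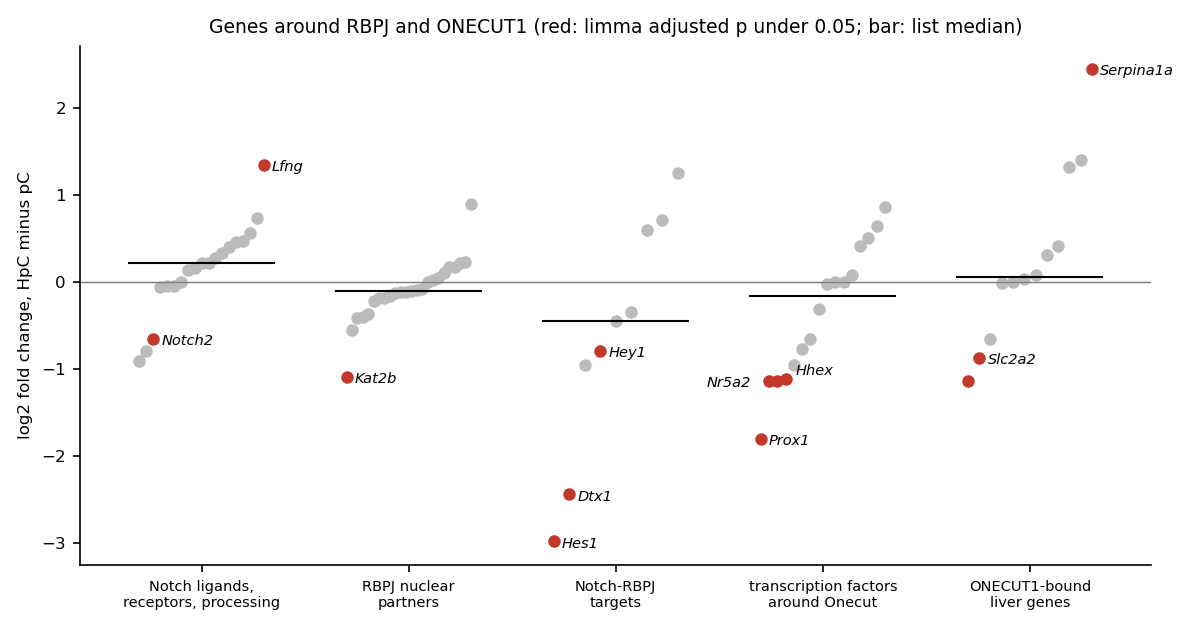
Log2 difference, HpC minus pC, of every tested gene of the 5 lists (points), with the list median (bar); red points passed a limma adjusted p of 0.05, and those described in the text carry their names. The Notch-RBPJ target list has the lowest median, -0.44, and its lowest point is Hes1 at -2.99.

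Against hepatocytes, many more genes of each list passed, as did many more genes in all. For HpC relative to H, where 30.7% of genes were called higher and 29.2% lower, 8 Notch ligand, receptor and processing genes rose and 4 fell (median 0.40, beside 0.08 over all genes), 16 RBPJ partners rose and 2 fell (median 0.71), and 7 of 9 tested targets rose and none fell (median 1.57). Of these 9, 4 (Dtx1, Hey1, Heyl and Nrarp) were under 1 TPM in every H library and entered the test through the cholangiocyte libraries, as did 5 of the 19 Notch genes and 4 of the 24 partners, so these counts say little on their own. Of the liver and duct transcription factors 5 rose and 10 fell (median -1.27), and of the ONECUT1-bound genes 1 rose and 10 fell (median -2.66). For pC relative to H, where 31.1% were called higher and 28.6% lower, the counts were 6 and 4, 16 and 0, 6 and 0, 6 and 7, and 1 and 8 in the same order of lists, with medians of 0.27, 0.83, 1.54, -0.37 and -2.87 beside 0.11 over all genes. Both comparisons share the H libraries. These splits depend on the scaling. On TPM without scaling, where the median of all genes was 0.87 for HpC against H and 1.20 for pC against H, 13 Notch genes were called higher and 1 lower in HpC, and 14 and 0 in pC. For the partners the counts were 19 and 0 in HpC and 24 and 0 in pC, for the targets 9 and 0 in both, for the transcription factors 6 and 6 in HpC and 8 and 4 in pC, and for the ONECUT1-bound genes 2 and 8 in HpC and 2 and 7 in pC.

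The Notch ligand Jag1, which marks developing and mature ducts, stood at 78.6, 103, 126 and 131 scaled TPM in the HpC libraries, 76.3, 45.9 and 74.5 in the pC libraries, and 0.800, 1.18 and 0.569 in the H libraries. HpC exceeded H by 5.89 ± 0.24 (limma adjusted p = 6.30e-08) and pC exceeded H by 5.15 ± 0.26 (limma adjusted p = 1.57e-07). Jag1, like Ctbp2 and Maml2 below, was under 1 TPM as deposited in every H library. These genes entered the test through the groups where they are high. Ctbp2, a corepressor that RBPJ complexes recruit, averaged 45.7 ± 16.6 scaled TPM in HpC (SD, n = 4), 38.5 ± 7.13 in pC (SD, n = 3) and 0.260 ± 0.167 in H (SD, n = 3). The coactivator Maml2 averaged 7.73 ± 2.50 in HpC, 8.20 ± 1.10 in pC and 0.0528 ± 0.0176 in H. Psen2, a gamma-secretase subunit that frees the Notch intracellular part, averaged 27.3 ± 13.8 in HpC, 44.6 ± 5.45 in pC and 201 ± 14.1 in H. It differed from H by -2.94 ± 0.29 in HpC (limma adjusted p = 1.03e-05) and by -2.15 ± 0.30 in pC (limma adjusted p = 0.000161). The hepatocyte regulator Hnf4a averaged 66.6 ± 16.4 in HpC (SD, n = 4), 49.3 ± 8.61 in pC (SD, n = 3) and 346 ± 23.1 in H (SD, n = 3). Among ONECUT1-bound genes, Cyp7a1, the rate-limiting enzyme of bile acid synthesis, averaged 6.95 ± 6.40 in HpC, 2.48 ± 4.18 in pC and 826 ± 133 in H. Ttr, which encodes transthyretin, averaged 248 ± 107 in HpC, 255 ± 111 in pC and 6902 ± 949 in H. Ttr and Hnf4a, like Serpina1a, are also among the hepatocyte markers.

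The genes most like each member over the 10 libraries were named by Pearson correlation of log2 values among 13041 genes, as a description, since the libraries share the contrast between cell types. Rbpj was followed most closely by Phf21a (r = 0.997), Ifnlr1 (0.994), Syt7 (0.993), Tgif2 (0.992) and Ror1 (0.992). Phf21a averaged 72.2 in HpC, 91.2 scaled TPM in pC and 27.9 in H. Onecut1 was followed less closely, by D630039A03Rik (r = 0.934), Trim23 (0.917), Tacc1 (0.906) and Rfxank (0.903). For Onecut2 they were Otud7b (r = 0.938), Tsix (0.906), Dph2 (0.886), Scyl2 (0.872) and Fbxl12 (0.861).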

How the data were processed

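Libraries came from flow-sorted liver cells and a kit for low input, per the labels. The authors deposited 1 table of TPM per library, covering 85276 transcripts; kallisto, DESeq and mm10 are named in the submitters' processing notes, without roles or versions. How they were run is not stated there. As no counts are in the tables, no count model was used, although the plan had allowed for counts, and no interval from depth can be given.

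Transcripts were joined by identifier to GENCODE M21 (81927 matched, 3349 did not; those unmatched held 4.22% to 9.06% of the TPM and were left out), and TPM were summed per gene. TPM were rescaled by an unweighted trimmed mean of log ratios (30% of log ratios and 5% of levels trimmed at each end). The filter asked for 1 TPM or more in 3 or more libraries and left 14765 genes and 36716 transcripts. limma 3.58.1 in R 4.3.3 was fitted to log2(scaled TPM + 1) of the 10 libraries together, each group having its coefficient, with a mean-dependent prior and Benjamini-Hochberg adjustment over all features at 5%. Shares were compared by two-sided exact permutation tests over libraries, adjusted over 15 tests. Windows, alignments and sequences came from the GENCODE M21 transcripts with Python 3.11.15, pandas 2.3.3 and Biopython 1.88, and figures from matplotlib 3.10.9. Scripts were tested on simulated data.

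The members, gene lists, markers and tests were chosen with earlier results of these data known. The text names all members, Hes1, up to 4 called genes per list, comparison and direction by size, a selection of these against H, the 5 genes most like each member, and the copies of Rbpj; some genes that this rule picks are not reported here. Ages differ within HpC and within pC, so those libraries came from different mice; H2 and H3 share an age, and HpC4 shares it with them, and nothing says whether they share an animal, so that p-values involving H may measure technical spread in part. Alternatives were other pseudocounts, filters, scalings and sets of libraries or transcripts, a fit of only the groups compared, and the replicate number as a block.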

Additional observations from a re-analysis of the deposited data

Results flagged for a closer look

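Of 54 sets of 4 HpC values examined, 12 held a library far from the other 3 (a gap to the nearest value above Dixon's critical share of the range); chance alone flags about 1 in 20 such sets, and several of these are the same reads seen as gene, transcript or share.

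HpC4 had Rbpj-203 at 5.07 scaled TPM, against 3.56 to 3.59 in HpC1 to HpC3, and Phf21a, the gene most like Rbpj, at 92.4, against 64.4 to 66.8. It alone among HpC had Rbpj-ps1, at 0.187 scaled TPM for the gene and 0.187 for its transcript Rbpj-ps1-201. HpC3 alone had Rbpj-202, at 0.274 scaled TPM and 5.95% of its Rbpj TPM. HpC1 was apart in Rbpjl, with 18.1 scaled TPM against 0.472 to 2.99, and in its transcripts Rbpjl-202, with 2.12 against 0.151 to 0.366, and Rbpjl-203, with 6.50 against 0.169 to 0.918. It also had Lfng at 6.54, against 2.10 to 2.15. In HpC1 the share of Onecut1-201 in Onecut1 was 23.3%, against 19.5% to 20.0%, and that of Onecut1-202 was 76.7%, against 80.0% to 80.5%. HpC1 is the library with high pancreatic acinar transcripts; their part in these values was not tested.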

How the results depend on the processing

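Of 573 tested values recomputed under alternatives, 543 kept their direction and side of the threshold, 17 changed sign, 5 lost their call and 8 gained one; of 111 counts of calls, 97 stayed within 1.5 times the reported count. The cause of the others was not tested. On TPM as deposited the median of all genes stood at -0.36 for HpC against pC, 0.87 for HpC against H and 1.20 for pC against H. There Onecut1 gave -1.65 (now called), -0.19 (call lost) and 1.46 (now called) for these 3 comparisons in that order, and Onecut2 -0.022, 1.62 and 1.64 (the last 2 now called). Against H, Onecut1-201 gave 0.44 in HpC and Onecut1-202 -0.32 in HpC and -0.46 in pC. With coding transcripts only, Onecut1 gave -2.96, -0.54 and 2.41, and between pC and H the Onecut shares differed by 30.6 (Onecut1), -30.4 (Onecut2) and -0.25 (Onecut3) points. For pC against H, Onecut1 gave 0.0100 with median-of-ratios scaling and 0.0091 without HpC1 and HpC2, where between HpC and H Onecut2 (1.27) gained a call, Onecut1-202 (-1.14) lost its call and the Rbpj-203 share differed by -0.094 points. Between HpC and pC, 393 genes were called in a fit of both groups alone, against 671, and 240 transcripts, against 562; 315 transcripts were called with a pseudocount of 0.1 and 207 without HpC1 and HpC2.

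The replicate numbers did not pair the samples: deviations of same-numbered libraries correlated at -0.05 to 0.08. With the number as a block, Onecut1 passed between HpC and pC (-1.42), 98 transcripts were called between them, and Hey1, Lfng, Notch2 and Nr5a2 missed the threshold.

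With each library left out, Onecut1 ranged from -1.42 to -0.99 for HpC against pC and from -0.45 to 0.17 for pC against H, and Onecut2 from 0.37 to 0.94 for HpC against H. The HpC to pC counts ranged from 271 (without pC2) to 794 (without HpC4) genes, and from 97 (without pC2) to 590 transcripts. Fewer were also called without HpC3 (415 and 276), pC1 (330 and 185), pC3 (443 and 277) or H2 (371 transcripts). Between pC and H the Onecut1 share ranged from -5.55 to 0.81 points and the Onecut2 share from -1.02 to 5.33. Because depth is unknown, low values such as those of Onecut3, Rbpj-201 and Rbpj-202 carry an error that cannot be given.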
